A study of Mus musculus with 6 samples.

Results

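The genes examined here encode the core proteins of the spliceosome and the 2 large families of RNA-binding proteins that guide it. They were picked by symbol from the count table: the SR genes (Srsf), the hnRNP genes (Hnrnp), the proteins of the small nuclear ribonucleoproteins (snRNPs, Snrp), the SF3 subunits (Sf3a and Sf3b), the U2AF genes (U2af) and the PRPF genes (Prpf). The rule gave 68 of the 53670 genes in the table, made up of 11 SR, 20 hnRNP, 12 snRNP, 9 SF3, 3 U2AF and 13 PRPF genes. It left out 5 matching names, the imprinted gene Snrpn and 4 names that mark pseudogenes. One gene that the rule keeps, Snrpert, is itself entered as a pseudogene by RefSeq and is a copy related to Snrpe.

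RNA was sequenced from pancreatic islets, which hold the endocrine cells that release insulin and glucagon, isolated from mice 6 weeks old. One group was Paupar -/- (KO, 3 libraries) and the other Paupar +/+ (WT, 3 libraries). Paupar is a long noncoding RNA gene beside Pax6. How the allele was made, the strain and whether each library came from 1 animal are not given in the labels, and p-values therefore reflect only how these libraries vary, which may be technical.

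Introns are removed in ordered steps. The U1 snRNP marks the start of the intron, SF1 and the U2AF proteins mark its end, and the U2 snRNP with its SF3A and SF3B subunits then holds the branch point. The U4/U6.U5 tri-snRNP joins next, and many of its proteins carry the PRPF names of the yeast genes they resemble. SR proteins bind exons and mostly favour their inclusion, while hnRNP proteins coat the nascent RNA and often act against it. Many SR and hnRNP genes limit their own messages through alternatively spliced exons that lead to decay, a step that counts per gene cannot show.

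Library totals were 26915566 to 27285009 counts in KO and 25733194 to 26969781 in WT. Paupar had 4, 0 and 4 counts in KO replicates 1 to 3, against 177, 252 and 111 in WT replicates 1 to 3. The islet hormone genes (Ins1, Ins2, Gcg, Sst and Ppy) were all present and summed to 278720 to 285730 CPM (counts scaled to a common library total) in KO and 236920 to 265070 in WT. Some other features of the libraries moved with the groups. Xist and Ddx3y counts placed KO replicate 1 with the WT libraries as male and KO replicates 2 and 3 apart as female. Xist had 0, 1120 and 862 counts in KO replicates 1 to 3 and 1, 6 and 3 in WT. Ddx3y had 1693, 2 and 0 counts in KO and 1715, 1316 and 1830 in WT. Sex thus differed along with genotype, and the main test, with genotype only, could not tell them apart. Summed markers of Schwann cells were at 2.57 to 3.72 CPM in KO and 5.67 to 6.92 in WT (4 of 4 markers in the table), and those of endothelial cells at 325 to 359 CPM in KO and 248 to 315 in WT (6 of 6). Acinar markers (10 of 10) overlapped, at 15290 to 39986 CPM in KO and 22281 to 66169 in WT, as did those of duct cells (4 of 4), macrophages (4 of 5) and stellate cells and fibroblasts (4 of 4). No marker of these lists was at 0 in all libraries, and their part in the results was not tested. In bulk RNA, fewer cells of a type and less RNA per cell cannot be told apart.

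As a set, the splicing genes stayed close to their WT level. All 68 passed the filter on low counts. Their summed level was 5459 ± 174 CPM in KO and 5482 ± 171 in WT (SD, n = 3 each), a ratio of 0.996, after scaling by TMM (a trimmed mean of ratios between libraries). The median log2 fold change of KO over WT was -0.0079 over the 68 genes and 0.0023 over all 15915 tested genes. Individual changes were small: 63 of 68 genes (92.6%) had a log2 fold change under 0.3 in size, against 72.3% of all tested genes. Only Prpf39, Prpf40b and Srsf12 exceeded 0.5. The genes are abundant, with a median of 53.8 CPM against 13.6 CPM for all tested genes. Their median SD within a group was 0.0935 on the scale of log2(CPM + 0.1), against 0.176 over all tested genes. They were not compared with genes of like abundance, and whether abundance accounts for the small changes was not tested.

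By edgeR's quasi-likelihood test with Benjamini-Hochberg adjustment over all tested genes, 0 of the 68 were called at an adjusted p below 0.05 in either direction. Over all tested genes 0.170% were called lower and 0% higher in KO. At an unadjusted p below 0.05, 7 of the 68 were below and 5 above WT, beside 9.38% and 6.99% of all tested genes. The KO and WT libraries did not overlap for 11 members that were lower and 8 that were higher (16.2% and 11.8%), against 12.1% and 11.3% of all tested genes. DESeq2 gave an adjusted p for 65 members and called 3 of them lower, Prpf40b, Prpf39 and Sf3b1, and 0 higher, against 4.10% of genes lower and 1.96% higher. These shares lie near the background. Scaling by library totals alone, without TMM, moved the median of all tested genes to -0.08, and values given under that setting carry this shift.

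**Figure D1:**
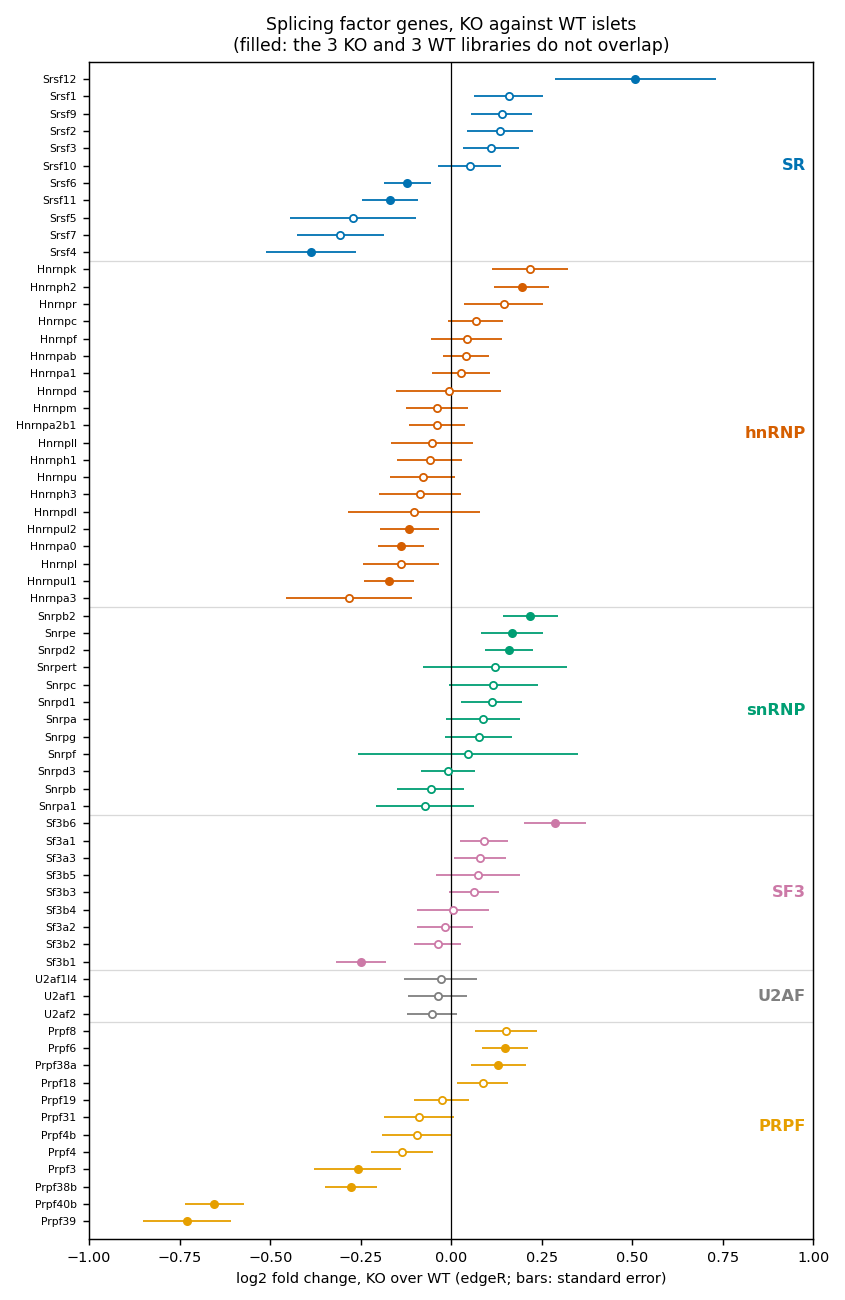
Log2 fold change of KO over WT (x axis) for 67 of the 68 genes (rows), by family, with the standard error from edgeR as bars. Filled points mark genes whose 3 KO and 3 WT libraries do not overlap; Prpf39 (-0.73) and Prpf40b (-0.65) lie farthest to the left and Srsf12 (0.51) farthest to the right.

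The PRPF genes held the largest differences. Prpf40b and Prpf39, whose yeast counterparts Prp40 and Prp39 are proteins of the U1 snRNP, were both lower in all 3 KO libraries than in any WT library. Prpf40b (chromosome 15, 99125518 to 99147449 in mm9) had 13.0, 13.0 and 12.2 CPM in KO replicates 1 to 3 and 19.8, 20.6 and 19.7 CPM in WT replicates 1 to 3. The libraries of each group lay within 1 CPM of each other, and the groups were well apart. The log2 fold change was -0.65 (SE 0.082), a level of 0.635 of WT, with an unadjusted p of 9.46e-05 that ranked 29 of 15915 genes and missed the threshold by little (edgeR adjusted p = 0.0519). Prpf39 (chromosome 12, 66137320 to 66164373 in mm9) had 12.1, 9.65 and 12.8 CPM in KO and 19.0, 18.7 and 19.6 CPM in WT. KO replicate 2 was the lowest library. The log2 fold change was -0.73 (SE 0.12, edgeR adjusted p = 0.0907), a level of 0.603 of WT.

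Both genes kept a negative log2 fold change in all 15 alternatives, between -0.73 and -0.51 for Prpf40b and between -0.82 and -0.62 for Prpf39. The call depended on the test, and most alternatives gave none. Prpf40b was called in 3 of the 15 and Prpf39 in 2. With limma-voom the adjusted p-values were 0.0558 for Prpf40b and 0.092 for Prpf39. In edgeR with the replicate number as a block they were 0.207 and 0.209. Neither gene was called with any library left out. DESeq2 gave adjusted p-values of 8.63e-06 for Prpf40b and 0.000314 for Prpf39. Library totals without TMM gave 0.0313 and 0.04997, and a filter of at least 1 CPM in 3 libraries gave 0.0453 and 0.0807. With the sex inferred from Xist and Ddx3y as a covariate, which sets KO replicate 1 against the WT libraries, the log2 fold changes were -0.62 and -0.66 (edgeR adjusted p = 0.503 and 0.55). With offsets for exonic length and GC content they were -0.51 and -0.82 (adjusted p = 0.138 and 0.12). Exons of Prpf39 share 305 bp with Fkbp3 on the other strand, whose counts were 655 to 674 in KO and 576 to 611 in WT, and whether strand was used in counting is not given in the sources used here.

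The 250 bases before the starts of Prpf40b, Prpf39 and Sf3b1 are shown because DESeq2 called these 3 genes (RefSeq, build GRCm38.p6, printed 5′ to 3′ on the gene's strand). Capitals mark GC boxes (GGGCGG) and CCAAT boxes (CCAAT) on either strand, overlaps between motifs included. The Prpf39 window is chr12:65036084-65036333 (plus strand), that of the first of 2 listed Prpf40b starts chr15:99294991-99295240 (plus strand) and that of Sf3b1 chr1:55027479-55027728 (minus strand).
Prpf39: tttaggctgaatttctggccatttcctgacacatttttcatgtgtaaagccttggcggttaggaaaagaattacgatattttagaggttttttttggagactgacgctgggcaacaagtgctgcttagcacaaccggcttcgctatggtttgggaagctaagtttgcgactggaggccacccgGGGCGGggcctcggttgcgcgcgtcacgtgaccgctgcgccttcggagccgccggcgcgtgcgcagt
Prpf40b: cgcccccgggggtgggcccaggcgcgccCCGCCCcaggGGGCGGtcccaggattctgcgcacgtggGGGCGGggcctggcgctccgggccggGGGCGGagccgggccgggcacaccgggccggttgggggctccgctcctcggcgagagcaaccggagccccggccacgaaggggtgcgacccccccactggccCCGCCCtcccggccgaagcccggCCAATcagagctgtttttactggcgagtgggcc
Sf3b1: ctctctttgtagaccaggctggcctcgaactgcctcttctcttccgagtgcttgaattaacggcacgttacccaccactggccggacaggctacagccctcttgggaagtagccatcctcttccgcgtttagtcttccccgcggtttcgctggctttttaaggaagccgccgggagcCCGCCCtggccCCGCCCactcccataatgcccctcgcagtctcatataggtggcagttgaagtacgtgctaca

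The 3 windows differed in composition. That of the first Prpf40b start was 79.6% G or C with 29 CpG and 5 GC boxes. That of Prpf39 was 54.8% with 21 CpG and 1 GC box, and that of Sf3b1 58.4% with 16 CpG and 2 GC boxes. The window of the second Prpf40b start, not printed, was unlike the first, at 49.6% with 1 CpG and no GC box. Counts per gene do not show which start is used in islets. RefSeq starts were listed for 58 of the 68 genes, 76 windows in all. A GC box was found in 65.8% of these windows and in 32.7% of 32851 windows of all genes, and an ETS-type sequence (CCGGAA, either strand) in 43.4% and 12.03%. A TATA box (TATAAA, either strand) was found in 6.58% and 12.4%. The windows of all genes came from 27025 genes and were not limited to tested genes. Windows of the members were also richer in G and C (median 60.6% against 52.4%) and in CpG (median 21 against 6). Whether this composition accounts for the motif shares was not tested. The families differed among themselves: GC boxes lay in 13 of 14 SR windows and 6 of 14 PRPF windows, and the ETS-type sequence in 7 of 8 SF3 windows and 7 of 27 hnRNP windows. A match is a run of letters and not a measured binding site.

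**Figure D2:**
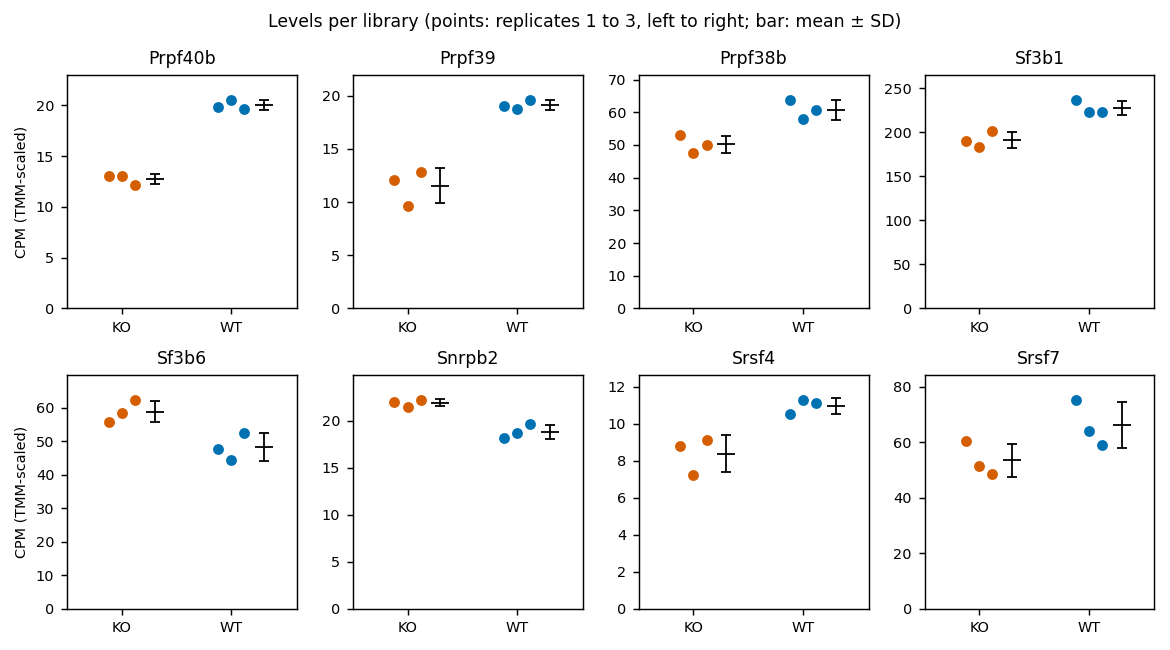
Level in CPM scaled by TMM (y axis, from 0) in KO and WT libraries for 8 named genes; points are replicates 1 to 3 from left to right and the bar is the mean ± SD. Prpf40b and Prpf39 lie between 9.65 and 13.0 CPM in KO and between 18.7 and 20.6 CPM in WT, while Sf3b6 and Snrpb2 are higher in KO and the Srsf7 groups overlap.

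The related genes Prpf38b and Prpf38a differed in opposite directions. Prpf38b (chromosome 3, 108705585 to 108714645), a relative of the spliceosome gene Prpf38a, had 53.0, 47.7 and 49.9 CPM in KO and 63.9, 57.8 and 60.8 CPM in WT (-0.28, SE 0.073, edgeR adjusted p = 0.171). Prpf38a was at 24.4 ± 0.534 CPM in KO and 22.3 ± 1.08 CPM in WT, with no overlap (0.13, SE 0.076, adjusted p = 0.448). The Prpf38b to Prpf38a ratio was 2.06 ± 0.141 in KO and 2.73 ± 0.172 in WT (SD, n = 3 each). This pair was chosen after its values were seen, and the ratio was not tested.

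Genes of the tri-snRNP core went in both directions, and none was called. Prpf8, which encodes the U5 protein at the catalytic centre of the spliceosome, had 367, 421 and 390.0 CPM in KO and 375, 350 and 337 CPM in WT (0.15, SE 0.086, edgeR adjusted p = 0.437). KO replicate 1 lay within the WT range. The value was 0.05 with the sex covariate, 0.28 with length and GC offsets and 0.10 without KO replicate 2. Prpf6, which bridges U5 and U4/U6, had 81.2, 87.3 and 84.4 CPM in KO and 77.6, 72.9 and 77.5 CPM in WT, with no overlap (0.15, SE 0.063, adjusted p = 0.305), and its value was 0.095 with the sex covariate. The U4/U6 protein gene Prpf3 was on the other side at 18.7, 14.3 and 18.4 CPM in KO and 20.7, 20.0 and 20.8 CPM in WT (-0.26, SE 0.12, adjusted p = 0.346). Its partner Prpf4 (-0.14), Prpf31 (-0.089) and the kinase gene Prpf4b (-0.095) were slightly lower with overlapping groups. Prpf19, the ubiquitin ligase of the complex named after it, was at 113 ± 6.61 CPM in KO and 116 ± 6.98 CPM in WT (-0.03, SE 0.076), and the second-step factor gene Prpf18 was at 0.09 (SE 0.071). Over the 13 PRPF genes the median was -0.089 on the log2 scale, with 8 below 0 and 5 above.

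Within SF3B, 2 subunits that touch the branch point region differed in opposite directions. Sf3b1 encodes the large ring-shaped subunit that clamps the branch point (chromosome 1, 55042013 to 55084322 in mm9). It had 191, 183 and 201 CPM in KO and 237, 223 and 223 CPM in WT, with no overlap (-0.25, SE 0.069, edgeR adjusted p = 0.184; DESeq2 adjusted p = 0.024). Sf3b6, whose product binds Sf3b1 and lies close to the branch point adenosine (chromosome 12, 4824414 to 4834464), had 55.9, 58.4 and 62.3 CPM in KO and 47.7, 44.5 and 52.6 CPM in WT. The groups did not overlap (0.29, SE 0.085, adjusted p = 0.200). With the length and GC offsets Sf3b1 was at -0.27 and Sf3b6 at 0.095. The Sf3b6 value thus fell from 0.29 to 0.095 with that setting (edgeR adjusted p = 0.673). Its exonic length is 1115 bp, against 6192 bp for Sf3b1, and whether length accounts for the fall was not tested.

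The remaining SF3 genes lay within 0.1 of 0 on the log2 scale. Sf3b2, the most abundant SF3 gene per kilobase of exon, was at 55.6 CPM per kilobase in KO and 57.1 in WT (log2 fold change -0.04, SE 0.064). Sf3b3 was at 0.06 (SE 0.069), Sf3b4 at 0.0053 (SE 0.10) and Sf3b5 at 0.07 (SE 0.12). Of the SF3A trio, Sf3a1 was at 0.09 (SE 0.065), Sf3a2 at -0.02 (SE 0.077) and Sf3a3 at 0.08 (SE 0.072). The SF3 median was 0.06 over 9 genes, and the summed level was 712 ± 21.1 CPM in KO and 731 ± 6.02 in WT.

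The SR genes divided into 5 that were lower and 6 that were higher. Srsf4 (chromosome 4, 131429532 to 131457640) had 8.78, 7.25 and 9.12 CPM in KO and 10.5, 11.3 and 11.1 CPM in WT, with no overlap (-0.39, SE 0.12, edgeR adjusted p = 0.218). About 43.3% of its annotated exonic length overlaps Gm12992 on the other strand, a gene with 1 to 6 counts in KO and 2 to 8 in WT. Srsf7 (chromosome 17, 80599429 to 80606629) had 60.2, 51.4 and 48.6 CPM in KO and 75.2, 64.0 and 59.0 CPM in WT, and KO replicate 1 lay above WT replicate 3 (-0.31, SE 0.12, adjusted p = 0.28). In both groups replicate 1 was the highest. The Srsf7 value was -0.46 under the length and GC offsets, -0.13 under the sex covariate and -0.20 once WT replicate 1 was left out. Srsf11 had 70.2, 61.6 and 71.9 CPM in KO and 77.7, 77.4 and 74.1 CPM in WT, and Srsf6, the most abundant SR gene per kilobase, had 139, 147 and 142 CPM in KO and 162, 149 and 153 CPM in WT. Neither pair of groups overlapped, and the log2 fold changes were -0.17 (SE 0.077) and -0.12 (SE 0.064). Srsf11 was at -0.10 without KO replicate 2, and Srsf6 at -0.08 without WT replicate 1 and -0.20 with the offsets. Srsf5 was lower in KO replicates 1 and 2 at 33.6 and 32.8 CPM, but KO replicate 3 at 51.2 CPM was above all WT libraries, which had 48.7, 48.0 and 45.3 CPM (-0.27, SE 0.17, adjusted p = 0.487).

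On the higher side of the SR family, Srsf12, a relative of the splicing repressor gene Srsf10 (chromosome 4, 33295966 to 33320315), had only 66, 70 and 83 counts in KO and 42, 59 and 56 in WT. That is 2.51, 2.67 and 3.13 CPM in KO and 1.57, 2.19 and 2.07 CPM in WT. The groups did not overlap, but the log2 fold change of 0.51 had a wide error (SE 0.22, edgeR adjusted p = 0.321). Srsf10 itself was at 0.05 (SE 0.087). The founding members Srsf1 and Srsf2 were at 0.16 (SE 0.095) and 0.13 (SE 0.091), Srsf3 at 0.11 (SE 0.078) and Srsf9 at 0.14 (SE 0.084), all with overlapping groups. The SR median was 0.05, and it was 0.10 without WT replicate 1 and -0.03 without WT replicate 2, and -0.02 with library totals alone, so no direction can be given for the family. The summed SR level was 692 ± 25.6 CPM in KO and 704 ± 35.5 CPM in WT.

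The hnRNP genes were the family with the highest summed level. They summed to 2720 ± 128 CPM in KO and 2737 ± 152 CPM in WT, and their log2 fold changes ran between -0.28 and 0.22 around a median of -0.046 over 20 genes. That median was 0.03 without WT replicate 3, -0.0043 without KO replicate 2, -0.10 without KO replicate 3 and -0.12 with library totals alone, so it gives no direction for the family. Hnrnpk, a KH-domain protein gene and the most highly expressed member per kilobase (chromosome 13, 58492503 to 58504704), had 426, 434 and 450.5 CPM in KO and 364, 336 and 428 CPM in WT. WT replicate 3 lay above KO replicate 1, so the groups overlapped (0.22, SE 0.10, edgeR adjusted p = 0.359). Its value was 0.11 with the offsets, 0.14 without WT replicate 2 and 0.33 without WT replicate 3. Hnrnpa2b1 was at 376 ± 21.8 CPM in KO and 386 ± 11.5 CPM in WT (-0.04, SE 0.077). Hnrnph2, an X-linked gene whose protein binds G-rich RNA (131135718 to 131141599), had 49.6, 49.7 and 52.0 CPM in KO and 47.8, 41.8 and 42.6 CPM in WT, with no overlap (0.19, SE 0.076, adjusted p = 0.278), and was at 0.12 with the offsets. KO replicate 1 was the library that resembled WT in Xist and Ddx3y. With the sex covariate Hnrnph2 was at 0.17 (edgeR adjusted p = 0.694), and the cause of its difference was not tested. Its autosomal relative Hnrnph1 was at -0.06 (SE 0.089).

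On the lower side of the hnRNP family were 3 genes with groups that did not overlap. Hnrnpul1 had 112, 106 and 119 CPM in KO and 121, 132 and 126 CPM in WT (-0.17, SE 0.070, edgeR adjusted p = 0.291). Hnrnpul2 was at 200.5 ± 13.1 CPM in KO and 217 ± 13.5 CPM in WT (-0.12, SE 0.082). Both are relatives of Hnrnpu, itself at -0.08 (SE 0.090). Hnrnpa0, a gene of the A/B group, had 85.0, 86.1 and 84.7 CPM in KO and 95.0, 88.6 and 97.9 CPM in WT (-0.14, SE 0.063, adjusted p = 0.335; -0.22 with library totals alone). Hnrnpa1, which has many near-identical copies in the genome that could split its reads, was at 0.03 (SE 0.080), and Hnrnpc, which binds uridine tracts, at 0.07 (SE 0.075).

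Some hnRNP genes varied more between libraries than between genotypes. Hnrnpdl had 60.9, 57.1 and 85.0 CPM in KO replicates 1 to 3 and 65.1, 65.7 and 87.3 CPM in WT replicates 1 to 3, the widest spread of the family on the log2 scale. Replicate 3 was the highest in both groups. The same held for 8 of the 20 hnRNP genes (40%), Hnrnpa3, Hnrnpd, Hnrnpdl, Hnrnph3, Hnrnpk, Hnrnpll, Hnrnpr and Hnrnpu, against 13.9% of all tested genes, a pattern that was picked out after its values were seen. It was not particular to this family. The share was 25% over all 68 members, and by family it ran from 8.33% in snRNP to 66.7% of the 3 U2AF genes. Of the annotated exons of Hnrnph3, 75.5% overlap Rufy2 on the other strand, so its level is uncertain. Hnrnpa3 had 30.3, 29.9 and 33.4 CPM in KO and 32.2, 32.3 and 49.3 CPM in WT, where replicate 3 stood apart. Its log2 fold change of -0.28 (SE 0.17) was -0.04 without WT replicate 3. The labels give the replicate numbers no meaning across genotypes.

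The snRNP protein genes had a median log2 fold change of 0.10, which was 0.02 with library totals alone, -0.06 with length and GC offsets and 0.06 when WT replicate 3 was left out. Of 12 genes 9 were above 0, and the summed level was 251 ± 6.15 CPM in KO and 240.2 ± 10.6 CPM in WT, with overlapping libraries. Snrpb2, which encodes the B'' protein of the U2 snRNP (chromosome 2, 142888775 to 142898589), had 22.1, 21.5 and 22.2 CPM in KO and 18.2, 18.7 and 19.6 CPM in WT (0.22, SE 0.077, edgeR adjusted p = 0.244). Snrpd2, an Sm protein of the ring shared by the snRNPs (chromosome 7, 19735071 to 19738084), had 31.6, 31.1 and 30.0 CPM in KO and 28.0, 26.9 and 28.1 CPM in WT (0.16, SE 0.067, adjusted p = 0.303). Snrpe, also of the ring, had 19.0, 17.6 and 19.6 CPM in KO and 16.0, 17.3 and 16.6 CPM in WT (0.17, SE 0.086, adjusted p = 0.388). The groups of these 3 genes did not overlap.

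The other Sm ring genes did not separate by genotype. Snrpd1 was at 0.11 (SE 0.085; -0.11 with the offsets), Snrpg at 0.08 (SE 0.092), Snrpd3 at -0.01 (SE 0.075) and Snrpb at -0.06 (SE 0.092). Snrpf was at 0.05 with an SE of 0.30, from 43 to 56 counts in KO and 33 to 65 in WT. Although the ring holds its proteins together in one complex, the message levels per kilobase differed widely: Snrpd3 was at 50.9 CPM per kilobase in KO and 51.3 in WT, and Snrpf at 2.28 in KO and 2.2 in WT. Of the 861 bp of annotated Snrpf exons, 85.4% overlap genes on the other strand, and its level is uncertain because the strand setting of the counting is unknown. The U1-specific genes Snrpa (0.09, SE 0.10) and Snrpc (0.12, SE 0.12) and the U2-specific gene Snrpa1 (-0.07, SE 0.14) had overlapping groups. Snrpert, the pseudogene copy, was at 0.12 (SE 0.20), and its reads and those of Snrpe may be split or exchanged.

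Log2 fold changes went along with gene length in the 14779 tested genes that have a length, and the snRNP genes are short. The median exonic lengths were 1116.5 bp in snRNP genes, 5228 bp in PRPF genes and 3524 bp over these 14779. In 3 bins of about equal size, the shortest (under 2585 bp) had a median of 0.08 on the log2 scale and the longest (from 4674 bp) one of -0.07. The splicing genes showed much the same, at 0.06 for the 18 short ones and -0.07 for the 24 long ones. With offsets for length and GC content the snRNP median was -0.06, Snrpb2 was at 0.09, Snrpd2 at 0.11 and Snrpe at 0.07. The offsets were fitted to these same libraries and take out any group difference that follows length or GC content. Whether length accounts for the snRNP values was not tested.

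**Figure D3:**
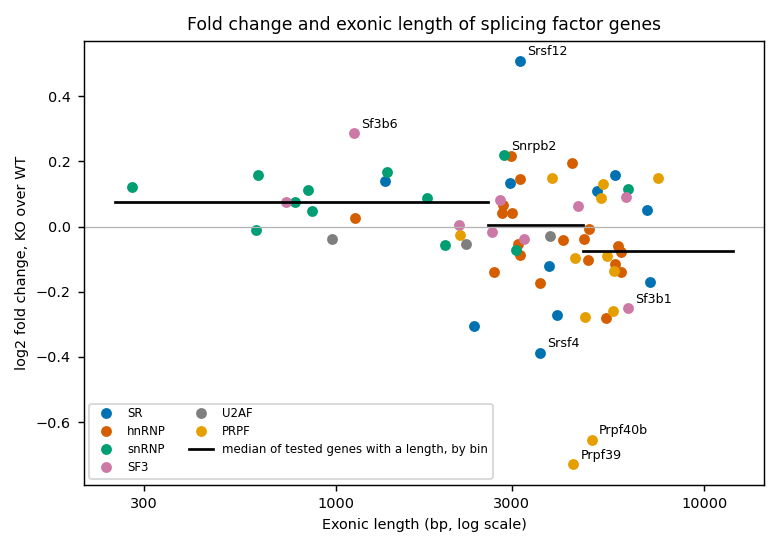
Log2 fold change of KO over WT (y axis) against exonic length in bp (x axis, log scale) for 67 of the 68 genes, coloured by family; black lines are the medians of the 14779 tested genes with a length in each of 3 length bins (0.08, 0.0039 and -0.07). The short snRNP genes sit near the upper line, and Prpf39, Prpf40b and Srsf12 lie far from the lines.

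The U2AF genes had a median of -0.04, which was -0.11 with library totals alone, -0.09 with the sex covariate and 0.0038 without WT replicate 3. U2af2, which reads the pyrimidine tract before the end of the intron, was at 73.0 ± 1.83 CPM in KO and 75.7 ± 4.95 CPM in WT (-0.05, SE 0.070). U2af1, which contacts the terminal AG, was at 23.3 ± 0.751 CPM in KO and 23.9 ± 1.43 CPM in WT (-0.04, SE 0.081). U2af1l4, a paralog of U2af1, was at 11.8 ± 0.929 CPM in KO and 12.1 ± 0.411 CPM in WT (-0.03, SE 0.10). The groups of all 3 overlapped. Of the annotated U2af1l4 exons, 41.7% overlap Tmem149 on the same strand and Gm17104 on the other, so its level is uncertain.

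**Figure D4:**
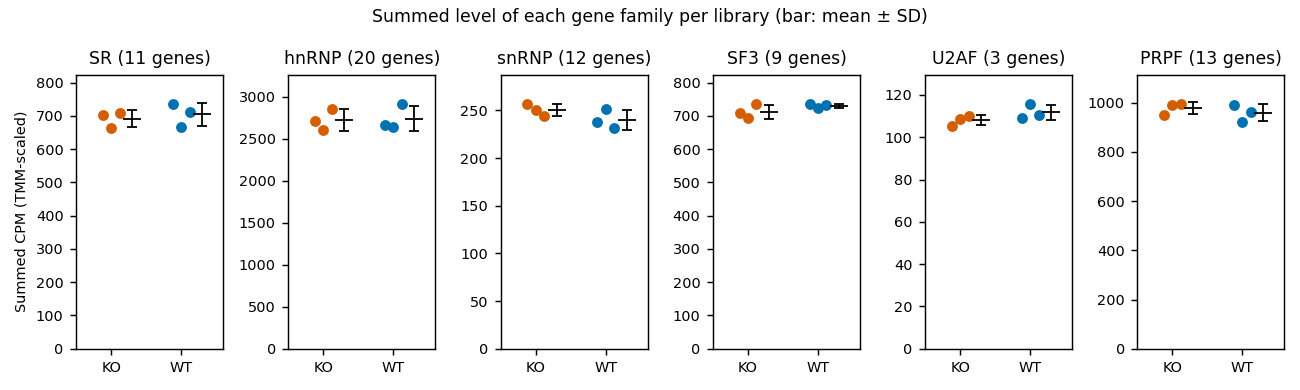
Summed level of each family in CPM scaled by TMM (y axis, from 0) in KO and WT libraries; points are replicates 1 to 3 from left to right and the bar is the mean ± SD. The groups of every family overlap, from U2AF at 108 and 112 CPM (KO and WT means) to hnRNP at 2720 and 2737 CPM.

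Set side by side, the 4 main families had median log2 fold changes of 0.05 (SR), -0.046 (hnRNP), 0.10 (snRNP) and 0.06 (SF3), and the PRPF median was -0.089. With library totals alone the SR and SF3 medians were -0.02 and -0.01. The families also differed in range, which depends on the number of genes and on single noisy ones. The range from the lowest to the highest gene was -0.39 to 0.51 in SR, where low-count Srsf12 was highest. It was -0.28 to 0.22 in hnRNP, -0.07 to 0.22 in snRNP, -0.25 to 0.29 in SF3 and -0.73 to 0.15 in PRPF. The lower and upper quartiles were -0.22 and 0.14 in SR, -0.11 and 0.04 in hnRNP and 0.03 and 0.13 in snRNP. They were -0.02 and 0.08 in SF3 and -0.26 and 0.099 in PRPF. Genes whose groups did not overlap numbered 3 lower and 1 higher in SR, 3 and 1 in hnRNP, 0 and 3 in snRNP, 1 and 1 in SF3, 0 and 0 in U2AF and 4 and 2 in PRPF. Over all tested genes these shares were 12.1% lower and 11.3% higher. Differences between families were not tested.

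Other spliceosome genes were taken from 8 further lists. Of their 63 tested genes, none was called by edgeR, and DESeq2 called 5 lower and 0 higher, beside 4.10% and 1.96% of all genes. At an unadjusted p under 0.05, 9 of 63 were lower and 4 higher, beside 9.38% and 6.99%. The groups did not overlap for 14 that were lower and 9 that were higher (22.2% and 14.3%), beside 12.1% and 11.3%, and the median log2 fold change was 0.02. The lists were chosen with earlier results of these data known. Values of their genes under the sex covariate, the offsets or with a library left out are not given here. Among the snRNP genes whose symbols begin with Snrnp (7 tested, median 0.12), 2 were lower at that level. Snrnp70, the U1 protein that binds the first stem of U1 RNA, had 44.4, 41.0 and 40.3 CPM in KO and 60.9, 59.1 and 47.7 CPM in WT (-0.42, SE 0.11, edgeR adjusted p = 0.166). Snrnp48, of the U11/U12 snRNP of rare introns, had 8.44, 8.85 and 6.37 CPM in KO and 12.5 ± 0.528 CPM (mean ± SD) in WT (-0.67, SE 0.15, adjusted p = 0.140). Neither pair of groups overlapped. The other 5 genes of the list had log2 fold changes from 0.02 (Snrnp35) to 0.17 (Snrnp200), and only the groups of Snrnp200 did not overlap.

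Of the U2-associated factors (9 tested, median -0.04), Cherp was at 40.5 ± 0.352 CPM in KO and 48.0 ± 0.937 CPM in WT (-0.24, SE 0.060, edgeR adjusted p = 0.159), and the branch point protein gene Sf1 at 126 ± 0.17 CPM in KO and 138 ± 9.61 CPM in WT (-0.13, SE 0.070). Among spliceosomal helicases and U5 factors (7 tested, median -0.23), Ddx23, the helicase gene of U5 that acts when U1 leaves, was at 48.3 ± 3.89 CPM in KO and 60.4 ± 1.38 CPM in WT (-0.32, SE 0.078, adjusted p = 0.156). Dhx38, a helicase gene of the catalytic steps, was at -0.23 (SE 0.083). The Prp19 complex list (9 tested, median 0.06) ran from the helicase-like gene Aqr at 0.16 (SE 0.066) to Xab2 at -0.19 (SE 0.099). The nuclear Sm-like genes, which bind U6 (7 tested, median 0.12), had 6 of 7 values above 0, among them Lsm6 at 0.17 (SE 0.11) and Lsm8 at 0.13 (SE 0.10).

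Kinases and partners of the SR proteins were also near or below 0 (7 tested, median -0.03). Srpk1, which encodes a kinase of SR proteins, had 30.6, 26.6 and 30.2 CPM in KO and 39.3, 37.8 and 35.1 CPM in WT (-0.36, SE 0.086, edgeR adjusted p = 0.154). Srek1, an SR-related regulator gene, was at 38.1 ± 5.79 CPM in KO and 49.1 ± 1.09 CPM in WT (-0.37, SE 0.12, adjusted p = 0.214). In the exon junction complex list (6 tested, median 0.06), Casc3 was lower (-0.29, SE 0.089) and Magoh higher (0.24, SE 0.088), neither past the threshold. Of 11 further RNA-binding genes related to hnRNPs (median -0.02), Ptbp2, the neuronal relative of the polypyrimidine tract binding gene Ptbp1, had 13.0, 11.9 and 13.8 CPM in KO and 16.7, 14.6 and 18.3 CPM in WT (-0.36, SE 0.12, adjusted p = 0.223). Pcbp2, a KH-domain gene like Hnrnpk, had 163, 173 and 182 CPM in KO and 140.1, 150.0 and 154 CPM in WT (0.22, SE 0.072, adjusted p = 0.223).

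Per kilobase of exon, levels within the 68 genes spanned from Srsf12, at a mean of 0.749 CPM per kilobase over the 6 libraries, to Hnrnpk at 136. Below Hnrnpk came Hnrnpa2b1 (92.4), Hnrnpa1 (71.8) and Hnrnpc (68.3), then Sf3b2 (56.3), Hnrnpu (54.3) and Prpf19 (52.6). The 2 genes with the largest differences lay low in this order, Prpf39 at 3.48 and Prpf40b at 3.31 CPM per kilobase.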

How the data were processed

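Gene expression was measured by RNA sequencing in 6 libraries of isolated islets, 3 Paupar -/- (KO) and 3 Paupar +/+ (WT), grouped by the labels. Per the labels' protocols, total RNA was made into TruSeq libraries. Tools listed in the submitters' processing notes are HTSeq and DESeq2 (no version), HISAT2 2.1.0 and CASAVA 1.8.2, with build mm9. For the annotation, the counting options and the strand setting: not given in the sources used here. The deposited table holds raw counts that the authors had not normalized. In it 24 names appear as dates, none of them a member.

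Counts were tested with edgeR 4.0.16 in R 4.3.3 (filterByExpr, TMM, quasi-likelihood F-test, Benjamini-Hochberg over 15915 genes, threshold 0.05). Log2 fold changes set KO over WT, and levels are CPM scaled by TMM. A count of 0 allows up to 3 counts, 0.110 to 0.117 CPM, which covers counting error only. Replicates differed beyond counting noise (chi-square per degree of freedom 26.7 to 89.1). Exonic lengths, GC content and coordinates came from GENCODE vM1 on mm9 for all 68 members. Exons of 18 members overlap another gene.

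Genes are named in full when they were called, were among the 4 smallest p-values or were among the 2 highest levels per length in their family, and in further lists when among the 2 smallest p-values. The others named were chosen after their values were seen. Members and lists were chosen with earlier results of these data known. The script was tested on simulated data. Alternatives were DESeq2 1.42.0, limma-voom (limma 3.58.1), other scalings and filters, the replicate number as a block, a sex covariate, length and GC offsets and leaving out each library. Counts of members at an unadjusted p below 0.05 under these settings were added after seeing the data. Protein sequence features were not analysed here. The values of 1 member are not reported here, though it is included in the counts and medians. Figures used Python 3.11.15 and matplotlib 3.10.9.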

Additional observations from a re-analysis of the deposited data

How the results depend on the processing

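Among the values of the named genes under the alternatives, 414 kept direction and side of the threshold, 6 passed it (Prpf40b, Prpf39 and Sf3b1) and 15 changed sign. The count of all genes called lower, 27 by edgeR, was 120 with library totals only, 437 with DESeq2, 4 with length and GC offsets and 0 with limma-voom and with the sex covariate; with each library left out in turn it ran between 0 and 80 (80 without WT replicate 3). The count called higher, 0 by edgeR, was 209 with DESeq2 and 0 to 9 with a library left out. Members called lower, 0 by edgeR, numbered 2 with library totals only, 1 with the filter of at least 1 CPM, 3 with DESeq2 and 2 at an adjusted p below 0.1. With library totals only the medians were -0.024 for SR, -0.12 for hnRNP, 0.024 for snRNP, -0.014 for SF3, -0.11 for U2AF and -0.16 for PRPF. The U2AF median was -0.092 with the sex covariate and the snRNP median -0.059 with the offsets. With a library left out the SR median lay between -0.025 and 0.10, hnRNP between -0.10 and 0.029, snRNP between 0.056 and 0.12, SF3 between 0.045 and 0.058, U2AF between -0.062 and 0.0038 and PRPF between -0.095 and -0.030. Members at an unadjusted p below 0.05 that were lower (7) numbered 11 with library totals, 2 with the sex covariate and 4 to 8 with a library left out. Those that were higher (5) numbered 0 with library totals and with the sex covariate, 3 with no filter and with the 1 CPM filter, and 1 to 4 with a library left out. Members higher without overlap (8) numbered 4 by CPM of the library total. Signs changed for Snrpd3 with no filter (0.0033), for Prpf19 (0.036) and U2af1l4 (0.0057) with the sex covariate, and for Sf3b2 (0.0043), Snrpd1 (-0.11) and U2af1l4 (0.028) with the offsets. With a library left out, Prpf19 ranged from -0.075 to 0.021, Snrpd3 from -0.049 to 0.023, U2af2 from -0.074 to 0.0019, U2af1 from -0.087 to 0.0038 and U2af1l4 from -0.075 to 0.033. The cause of these shifts was not tested.

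Same-numbered libraries deviated together with correlations of 0.227, 0.0657 and 0.122, and 2 of 3 KO libraries correlated best with their own number. These values do not settle whether the numbers mark pairs. The labels do not say that they do, and the main test did not take them as pairs. With the replicate number as a block, 0 genes were called lower and 3 members were higher at an unadjusted p below 0.05. With 3 libraries a group, small differences of single genes could not be told from the spread, and counts per gene show no isoforms.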
